A study of Mus musculus with 11 samples.

Results

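The genes Cenpw, Myo7a, Olfr854, Cyr61, Tbl1xr1, D17Wsu104e and 4930529K09Rik were followed through the deposited lists of MeDIP-seq windows. They were chosen by measured values: each names at least 1 window that the authors listed both for the 24 h against the 22 h cycle and for the 24 h against the 26 h cycle in the dorsal suprachiasmatic nucleus (SCN), which is the brain's main circadian pacemaker. The 7 genes name 14 of the 1181 different windows in the 4 lists. Of these, 13 are dorsal and 9 stand in both dorsal lists, out of 26 windows that the dorsal lists share. Those 26 windows are named after 18 genes, so the 7 genes are only a part of those that meet the criterion. The lists hold 131 dorsal windows against 22 h and 79 against 26 h, so the shared windows make up 19.8% of the first and 32.9% of the second. All 26 shared windows were lower at 24 h in both comparisons. Of all listed windows, 93.1% were lower at 24 h against 22 h and 78.5% against 26 h. The comparisons share the 24 h column, so they are not independent.

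All mice were wild-type C57BL/6Cr1 animals, put at 6 weeks of age on light-dark cycles of 22, 24 or 26 h. They stayed on them for 6 weeks and then spent 3 days in constant darkness, so every group, the 24 h controls included, was sampled in darkness, at circadian time 4 (age given as postnatal day 90). MeDIP-seq captures methylated DNA with an antibody and counts the captured fragments along the genome. The labels name 2 dorsal samples at 22 h, 2 at 26 h and 1 at 24 h, but each list has 1 column per cycle length, so no value below can be set against the spread between mice. Both dorsal comparisons use the same 24 h column, and their 24 h RPKM (reads scaled to the window's length and to the total reads of the column) were equal in all 26 shared windows. The RPKM steps correspond to about 5720000 reads in the 22 h column, 4580000 in the 24 h column and 5770000 in the 26 h column. The lists hold windows of DNA and no marker genes, so the labelled tissue could not be checked. In a piece of tissue, a change in methylation per cell, a change in cell makeup and a change in the amount of that DNA cannot be told apart. Nor can these be told apart from a difference in antibody capture, library or read mapping, since dorsal 24 h is 1 sample.

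The genes have little function in common. Cenpw encodes a histone-fold protein of the inner kinetochore, Myo7a a myosin motor of sensory hair cells, and Olfr854 an olfactory receptor. Cyr61, now called Ccn1, encodes a secreted matricellular protein, and D17Wsu104e, now Mydgf, a secreted growth factor. Tbl1xr1 belongs to the nuclear corepressor complex that contains NCoR and HDAC3, and 4930529K09Rik is a long noncoding RNA gene in RefSeq. DNA methylation in mammals sits mainly on CpG dinucleotides, and in neurons it also occurs outside CpG.

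In every dorsal case the listed DNA lay beside a short tandem array. All 13 dorsal windows of the 7 genes were within 500 bp of at least 4 exact tandem copies of either GGAAT or TTAGGG on either strand, 2 units that were searched for after the window sequences had been read. The unit GGAAT is known from satellite III, found near primate centromeres, and TTAGGG is the telomere repeat of vertebrates, which also occurs inside chromosomes. The sequences of 3 arrays are shown because such an array is what the windows share beyond the rule that chose them. They are written 5′ to 3′ on the plus strand of mm9, the build named in the submitters' processing notes, with the array in capitals and up to 60 flanking bases on each side in lower case.

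The GGAAT arrays belong to 4 genes. At D17Wsu104e (chr17:56339370-56339568) the array is on the minus strand and shows as ATTCC, while Olfr854 (chr9:19379821-19380011) and Myo7a (chr7:105208487-105208665) carry it on the plus strand. The fourth gene is Cyr61.
D17Wsu104e: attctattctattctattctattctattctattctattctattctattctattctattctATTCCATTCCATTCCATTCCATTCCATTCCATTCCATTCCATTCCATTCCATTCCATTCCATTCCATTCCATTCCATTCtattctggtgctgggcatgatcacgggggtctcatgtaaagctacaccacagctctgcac
Olfr854: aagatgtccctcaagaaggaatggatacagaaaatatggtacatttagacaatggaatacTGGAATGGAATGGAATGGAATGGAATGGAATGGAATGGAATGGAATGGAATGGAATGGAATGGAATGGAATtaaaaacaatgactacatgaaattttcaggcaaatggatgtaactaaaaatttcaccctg
Myo7a: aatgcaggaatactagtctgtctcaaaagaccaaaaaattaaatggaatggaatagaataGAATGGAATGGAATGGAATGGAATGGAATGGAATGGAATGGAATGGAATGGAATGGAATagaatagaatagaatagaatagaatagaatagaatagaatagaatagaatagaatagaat

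The TTAGGG arrays belong to the other 3 genes, 4930529K09Rik, Tbl1xr1 and Cenpw.

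Neither unit contains a CpG. The arrays measured 79 bp at D17Wsu104e, 71 bp at Olfr854, 59 bp at Myo7a and 54 bp at Cyr61, against 150 bp at 4930529K09Rik, 89 bp at Tbl1xr1 and 81 bp at Cenpw. Array bases fell inside 8 of the 13 windows. The other 5 windows lay 46 bp (Myo7a and Tbl1xr1), 49 bp (Olfr854), 51 bp (4930529K09Rik) and 155 bp (Cenpw) from the array. The DNA was sheared to an average of 300 bp, so a captured fragment could span the array and the neighbouring window. Whether reads were extended before counting is not given in the sources used here.

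Such arrays are rare in the genome. Of 5116421 windows of 500 bp on the same grid in mm9 without undetermined bases, 124 (0.00242%) lay within 500 bp of a GGAAT array and 783 (0.0153%) of a TTAGGG array. In the dorsal list against 26 h, 31 of 79 windows (39.2%) lay near GGAAT and 10 (12.7%) near TTAGGG. In the dorsal list against 22 h the order was the other way round, with 13 of 131 (9.92%) near GGAAT and 24 (18.3%) near TTAGGG. All these windows were lower at 24 h, as were 93.1% of all windows listed against 22 h and 78.5% of those listed against 26 h. Away from both arrays, 85 of 94 windows were lower against 22 h and 21 of 38 against 26 h. Both units were picked after the window sequences had been read, and these counts include the windows of the 7 genes, so they are a description. Without those windows, 23 of 68 lay near GGAAT (13 other genes) and 7 near TTAGGG (4 other genes) in the list against 26 h. In the list against 22 h, 7 of 120 lay near GGAAT (6 other genes) and 19 near TTAGGG (14 other genes).

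Of the 40 loci with a GGAAT array in mm9 (arrays less than 1000 bp apart joined), 17 had a listed dorsal window within 500 bp. The 12 loci with the longest arrays, from 54 bp (Cyr61) to 79 bp (D17Wsu104e, the longest in mm9), were all among them. The longest array without a listed window measured 52 bp, but the shortest with one measured 36 bp. Below 54 bp, length thus did not separate the loci with a listed window from those without. The median was 60 bp over the 17 loci with a listed window and 42 bp over the others. Of 251 TTAGGG loci, 18 had a listed dorsal window, and of the 28 with arrays at least as long as that of Cenpw, 15 did. Both length limits, 54 bp at Cyr61 and the array of Cenpw, are the shortest for each unit among the genes followed here. Those genes were chosen for having listed windows and their loci are included, so these counts and medians were partly fixed in advance. The other GGAAT loci with arrays longer than 54 bp also had a listed window. The bar plot of array lengths shows where the 4 genes stand among the GGAAT loci.

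**Figure D1:**
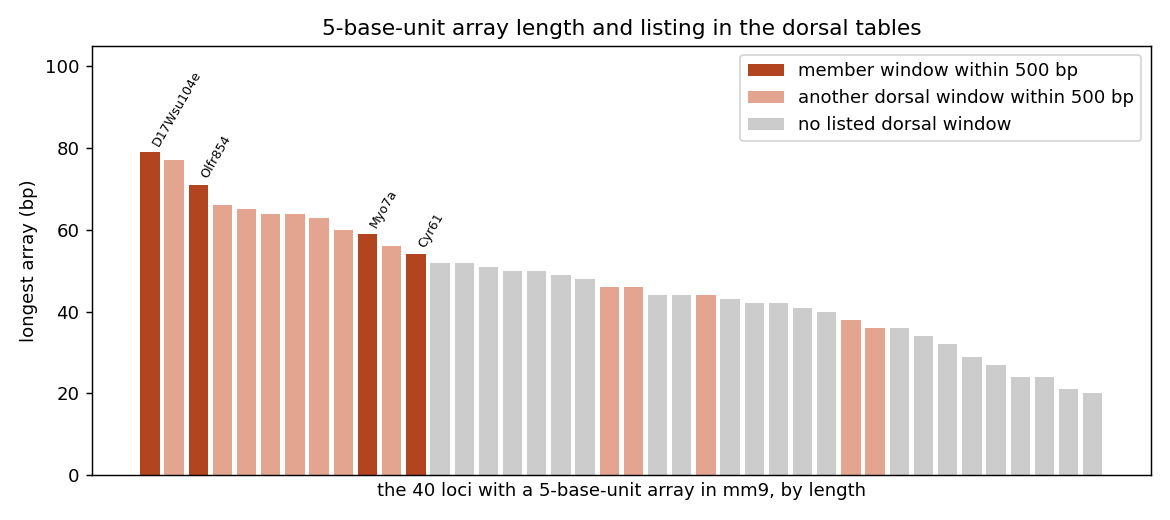
Length in bp of the longest array (y axis) at each of the 40 loci of mm9 with at least 4 exact tandem copies of the 5-base unit GGAAT, in order of length (x axis). Dark bars have a window of 1 of the 7 genes within 500 bp, light bars another listed dorsal window, and grey bars none; the 12 longest loci are all coloured.

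The member windows lie mostly outside genes and far from start sites. In GENCODE M1, both Myo7a windows (chr7:105208001-105208500 and chr7:105208501-105209000) lie in an intron of Myo7a, 49.5 and 49.0 kb away from the start given in the authors' deposited table. Another annotated Myo7a start lies closer, at 5.21 and 4.71 kb. Both D17Wsu104e windows (chr17:56339001-56339500 and chr17:56339501-56340000) lie in an intron of a neighbouring gene, Dpp9, which encodes a dipeptidyl peptidase, and 15.9 and 16.4 kb from the D17Wsu104e start site. The other 9 dorsal windows are intergenic. They are 7.92 and 8.43 kb from the start site at Olfr854 (chr9:19379501-19380000 and chr9:19380001-19380500), and 40.8 and 41.3 kb at Cyr61. The distances are 47.0 and 46.5 kb at 4930529K09Rik, 230 and 229 kb at Cenpw and 378 kb at Tbl1xr1. Apart from Myo7a, the windows thus carry the name of a gene that they were not found to overlap. GENCODE M1 has no entry named 4930529K09Rik, so for that gene only the deposited distance to its start site was available. In GENCODE M1 the start nearest the Cyr61 windows is that of Gm17501, at 40.2 and 40.7 kb.

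These windows held few CpGs, as do many windows of the genome. The 13 windows held between 0 CpGs (Myo7a, the window with the array) and 5 (4930529K09Rik, the window with the array), with a median of 2. The median was 3 over all genome windows, of which 39.99% held at most 2. It was 4 over the 171 other dorsal windows. The ventral lists differed, with a median of 26 over the 812 windows against 22 h and 5 over the 217 against 26 h. Words of 31 bases were counted over the assembled chromosomes of mm9, so copies in unassembled DNA were not seen. Over the whole member window, arrays included, a median of 83.8% of the words occurred once, against 19.8% in the other dorsal windows. In 11 of the 13 member windows at least 50% did. The exceptions were Tbl1xr1, with 36.2% unique words and a median of 30.5 copies, and the second Olfr854 window, with 49.1%, neither of which holds array bases.

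At 24 h most of the windows held few reads. Even coverage of the genome would give 0.377 RPKM, and 1 read was worth 0.436 RPKM in the dorsal 24 h column. Of the 13 windows, 2 had 0 reads, 6 had 2 reads and 10 had at most 3. The 3 windows with more were both windows of 4930529K09Rik and the array window of Cenpw. All 11 windows listed against 22 h and all 11 listed against 26 h were lower at 24 h by RPKM. Listed windows as a whole were lower at 24 h in 93.1% of cases against 22 h and 78.5% against 26 h, and since the windows were selected on these contrasts nothing is read from the counts. The median 24 h RPKM was 11.9% of the 22 h RPKM over the member windows (17.8% over all 131 windows) and 5.7% of the 26 h RPKM (16.3% over all 79).

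**Figure D2:**
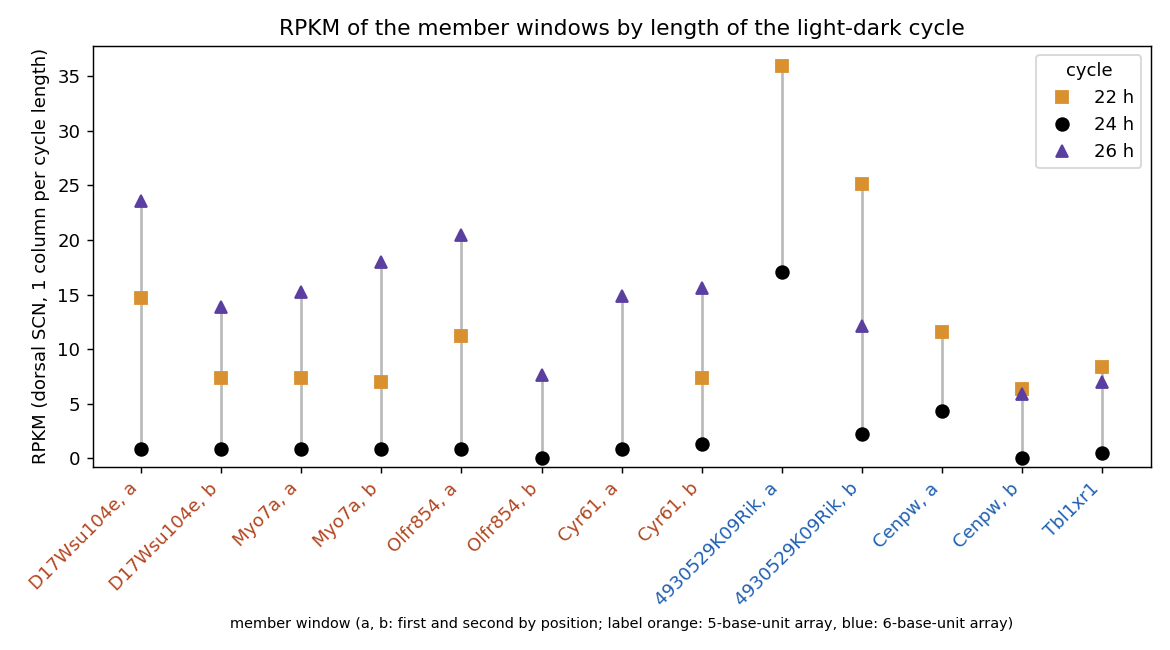
RPKM (y axis) of the 13 dorsal windows (x axis) after 22 h (squares), 24 h (circles) and 26 h cycles (triangles), 1 column per cycle length and no replicates; a missing symbol means that the window was not listed in that comparison. The 24 h value is the lowest in each window, and 26 h lies above 22 h at the windows with orange labels that have both values.

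The windows named after D17Wsu104e and Cyr61, the genes of secreted factors, lie at GGAAT arrays. The D17Wsu104e window that holds most of the array had 14.7 RPKM at 22 h, 0.87 at 24 h and 23.6 at 26 h. This window was 16.8-fold lower at 24 h than at 22 h (exact 95% interval 4.37 to 143) and 27-fold lower than at 26 h (7.19 to 227). The adjoining window had 7.34, 0.87 and 13.9 RPKM, which is 8.41-fold (2.06 to 74) and 15.9-fold lower (4.12 to 136). In both windows 24 h rested on 2 reads, and the order was 26 h over 22 h over 24 h.

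At Cyr61 the array crosses the border of 2 windows, and 1 of them is in both lists. That window had 7.34 RPKM at 22 h, 1.31 at 24 h and 15.6 at 26 h, 5.61-fold lower at 24 h than at 22 h (1.67 to 29.3) and 11.9-fold lower than at 26 h (3.82 to 59.9). Its p-value of 8.88e-05 against 22 h in the authors' deposited table was near the largest of that list, 9.22e-05, and windows past that limit were not analysed here. The adjoining window was listed only against 26 h, where 0.87 RPKM at 24 h stood against 14.9 RPKM at 26 h (17.1-fold lower, 4.45 to 145).

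The hair cell motor gene Myo7a had 2 adjoining intronic windows in both lists. The window that holds the array had 6.99 RPKM at 22 h, 0.87 at 24 h and 18.0 at 26 h, and the window 46 bp from the array had 7.34, 0.87 and 15.3. Their deficits at 24 h were 8.01-fold (1.95 to 70.7) and 8.41-fold (2.06 to 74) against 22 h. Against 26 h they were 20.6-fold (5.44 to 175) and 17.5-fold (4.56 to 149). The window without array bases thus had nearly the same levels as the window with them.

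The olfactory receptor gene Olfr854 is represented by an array window with 11.2 RPKM at 22 h, 0.87 at 24 h and 20.5 at 26 h. It was 12.8-fold lower at 24 h than at 22 h (3.27 to 110) and 23.4-fold lower than at 26 h (6.2 to 198). The adjoining window, listed only against 26 h, had no read at 24 h and 7.62 RPKM at 26 h. That is 5.82-fold lower with the 24 h column set to a floor of 3 reads. The floor value is not a lower bound, since the lower end of the exact 95% interval was 4.35-fold.

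Of the 3 genes with windows at TTAGGG arrays, 4930529K09Rik had a higher level at 22 h than at 26 h. Its window beside the array had 25.2 RPKM at 22 h, 2.18 at 24 h and 12.1 at 26 h, 11.5-fold lower at 24 h than at 22 h (4.72 to 36.6) and 5.56-fold lower than at 26 h (2.17 to 18.2). The array window was listed only against 22 h and carried the highest level of the 7 genes, 36 RPKM at 22 h against 17.02 RPKM at 24 h. It was 2.11-fold lower at 24 h (1.45 to 3.14), an interval that does not overlap that of its neighbour.

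The kinetochore gene Cenpw, 229 kb away, showed the same arrangement with fewer reads. The window 155 bp from the array had 6.29 RPKM at 22 h, no read at 24 h and 5.89 RPKM at 26 h. With the floor of 3 reads it was 4.8-fold lower at 24 h than at 22 h and 4.5-fold lower than at 26 h. The lower exact 95% limits were 3.52 and 3.28. The array window was listed only against 22 h, where 11.5 RPKM at 22 h stood against 4.36 RPKM at 24 h (2.64-fold lower, 1.27 to 6.01). Here the interval of the array window reaches past the limits of its neighbour.

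Near Tbl1xr1, which encodes a corepressor subunit, the dorsal window lay 46 bp from a TTAGGG array and had 8.39 RPKM at 22 h, 0.44 at 24 h and 6.93 at 26 h. Its 24 h value is 1 read, so the folds of 19.2 against 22 h (3.13 to 790) and 15.9 against 26 h (2.54 to 658) are poorly bounded. The levels at 22 and 26 h were close to each other.

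**Figure D3:**
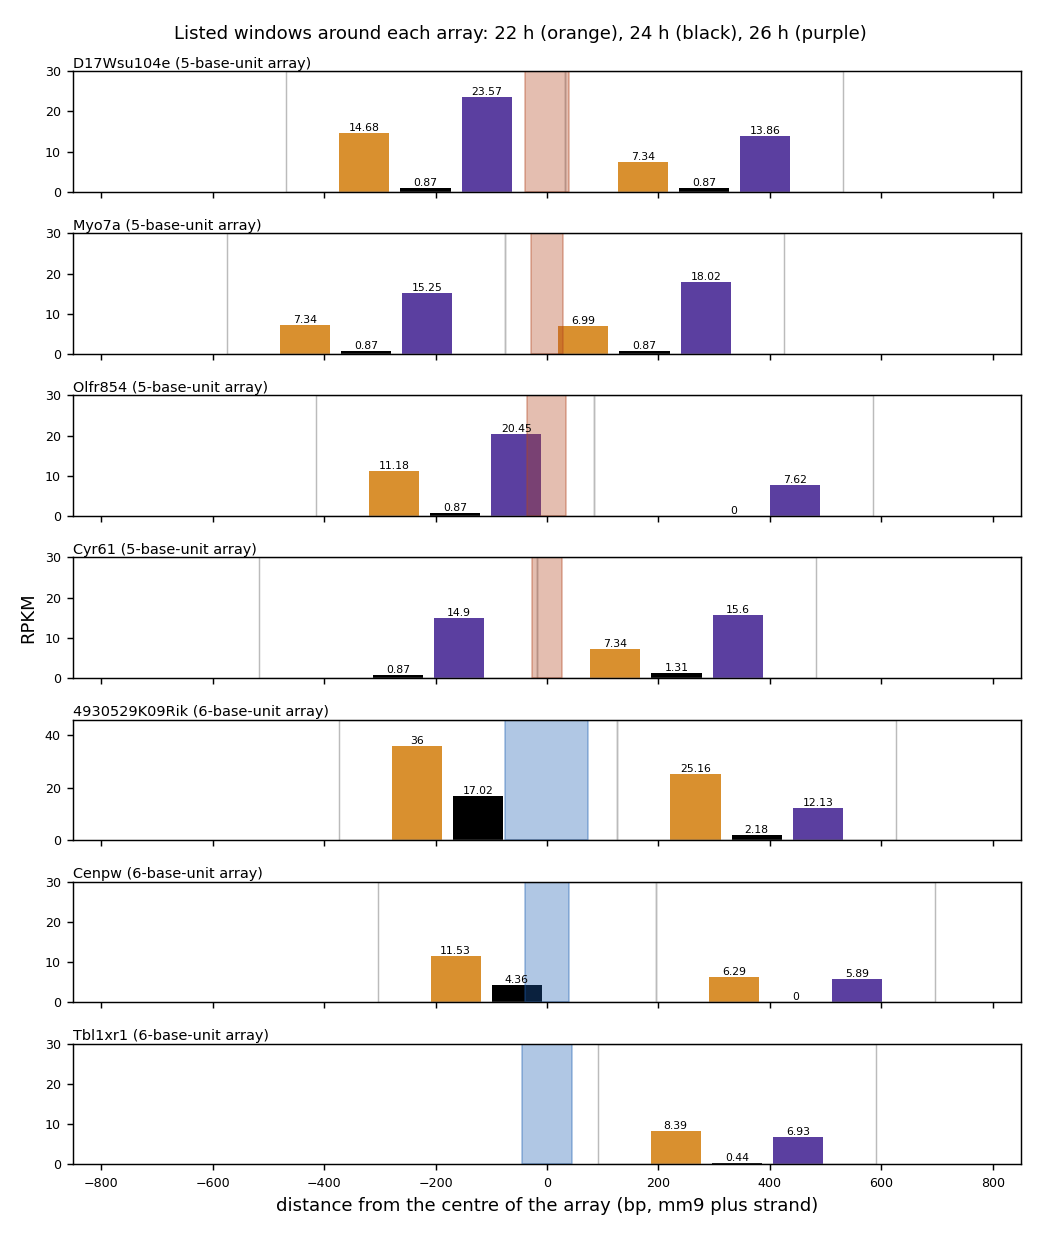
RPKM (bars, y axis) of the listed windows of each gene, placed by distance from the centre of its array (x axis, bp); grey lines bound the 500-bp windows, the shaded band is the array, and orange, black and purple bars are 22, 24 and 26 h. A bar not drawn was not listed, except where 0 is written; windows beside an array and windows with it both have low black bars, and the black bars are highest in the array windows of 4930529K09Rik and Cenpw.

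The windows in both lists also allow 22 h to be set beside 26 h, a comparison the lists do not make. The values come from 2 tables whose shared 24 h RPKM are identical. All 6 windows at GGAAT arrays were higher at 26 h than at 22 h, between 1.61-fold (D17Wsu104e, exact 95% interval 1.08 to 2.42) and 2.58-fold (Myo7a, 1.51 to 4.56), with a median of 1.98, and each interval lay above 1. The 3 windows at TTAGGG arrays were lower at 26 h or close to 22 h. The ratio of 26 h to 22 h was 0.482 at 4930529K09Rik (0.312 to 0.732), 0.826 at Tbl1xr1 (0.433 to 1.56) and 0.937 at Cenpw (0.454 to 1.93), and the last 2 intervals hold 1. The sign of all 9 differences was the same when the authors' log2 fold changes were subtracted. The windows were chosen for being listed, the intervals cover counting error only, and neighbouring windows can share fragments, so no test of the 2 kinds of array was made.

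**Figure D4:**
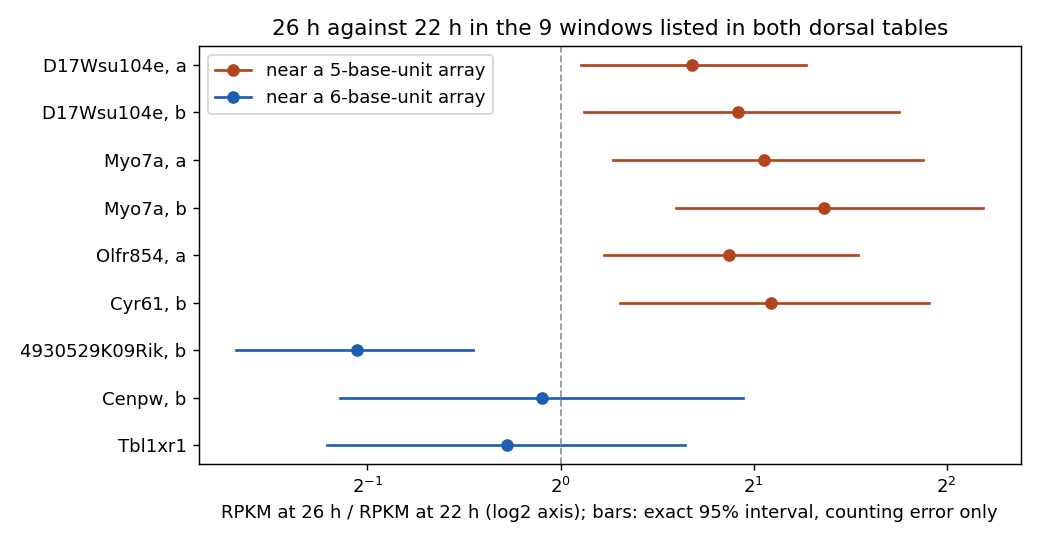
Ratio of RPKM at 26 h to RPKM at 22 h (x axis, log2 scale) for the 9 windows listed in both dorsal tables (y axis), with exact 95% intervals for counting error as bars. The 6 windows near the 5-base unit lie above 1, and the 3 near the 6-base unit lie below 1, of which 2 have intervals that hold 1.

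The other 17 shared windows were named after 11 genes. Of these, 7 lay near GGAAT (Gm13580, AA545190, Gm4736, Gm17644, 4930521E06Rik and 2 windows of 1700128A07Rik), and all 7 were higher at 26 h than at 22 h, with a median ratio of 1.78 and an interval above 1 in 5. Another 7 lay near TTAGGG (Gm14496, Tmx3 and G530011O06Rik with 2 windows each, and Rims1). Of these 6 were lower at 26 h with intervals below 1, and the Rims1 window had a ratio of 1.13 (0.518 to 2.51). The remaining 3 lay near neither array, namely 2 windows of Col19a1 and 1 of G530011O06Rik. The Col19a1 windows were also lower at 26 h, with ratios of 0.504 (0.366 to 0.688) and 0.561 (0.459 to 0.684), so a lower level at 26 h was not particular to TTAGGG arrays. The G530011O06Rik window had a ratio of 1.12 (0.671 to 1.88).

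Some other windows had the levels of a member window, more of them in the list against 22 h than in the list against 26 h. Against 22 h, 10 of the 120 other windows had exactly the values of a member window in both columns, of which 1 lay near a TTAGGG array and 9 near neither array. In genome order, the first 3 of these were named after 1700080N15Rik (0 RPKM at 24 h against 6.29 at 22 h, as at Cenpw), Rprl1 and 1700015G11Rik (1.31 against 7.34 in each, as at Cyr61), all near neither array. Against 26 h, 2 of the 68 other windows had such a match, and the 3 most alike were a window of 1700128A07Rik and 2 of 3110007F17Rik, all near GGAAT arrays. In that list the median 26 h level was 14.9 RPKM over the member windows and 9.19 RPKM over the others. Likeness was the distance in log2(RPKM + 0.5) over 2 columns, which is a coarse measure at these low counts.

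In the ventral lists, none of the 13 dorsal windows was present, and 1 of the 7 genes named a window. It was a different Tbl1xr1 window, 8000 bp from the dorsal one (intergenic, 386 kb from the start site), listed in the ventral comparison of 24 h with 22 h. Its 24 h level of 4.59 RPKM was 3.84-fold below the 22 h level of 17.6 RPKM (2.07 to 7.78), in a list where 75.7% of windows were lower at 24 h. It held 28 CpGs, none of its 31-base words was unique (median 605 copies), and it lay 7365 bp from the nearest TTAGGG array. No ventral window lay near a GGAAT array, and 2 of 217 in the ventral list against 26 h lay near TTAGGG (named after Tmx3 and Gm14496), both higher at 24 h, in a list where 73.3% of windows were lower. A window that is not listed may still differ, and the ventral values of the 13 windows were not analysed here.

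Relatives of the 7 genes were looked up in the lists by name, and since a list of this size names few genes of any kind, nothing is read from the counts. Of 23 other centromere protein genes and 5 other CCN family genes, none named a window in any list. Of 31 unconventional myosin and Usher syndrome genes, Myo3a named a dorsal window, with 1.75 RPKM at 24 h and 7.34 at 22 h, 149 kb from its start site. In the ventral list against 22 h this group had the Usher gene Clrn1 (3.06 against 14.9 RPKM). Of 7 genes tied to the corepressor complex, none named a dorsal window, while Tbl1x, a paralog of Tbl1xr1, and Nr1d2, a clock repressor that recruits NCoR, named 3 windows in the ventral list against 22 h, all lower at 24 h. Other olfactory receptor genes named no dorsal window and 10 windows for 9 genes in that ventral list, all lower at 24 h, in a list where most windows are.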

How the data were processed

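MeDIP-seq was applied to 11 samples in 6 groups. The submitters' processing notes name BWA and mm9. The 4 deposited lists hold windows of 500 bp, for which the authors ran edgeR, per the file headers. The columns that the authors named counts hold a rescaled score, since 6 of 26 shared windows had unequal 24 h scores at equal RPKM. RPKM, the log2 fold change (24 h over the other) and the unadjusted p-value were used as deposited by the authors, per the file headers. How samples of a group were combined is not given in the sources used here.

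Read numbers were recovered from RPKM: all values up to 60 reads were multiples of 1 step within 0.01 RPKM. Ratios were scaled to depth, with exact 95% Clopper-Pearson intervals. A column at 0 was set to 3 reads. Intervals and floors cover counting error only and not the spread between mice. Reads that carry no molecular identifier can be copies of 1 molecule, in which case the intervals are too narrow. Arrays were at least 4 exact tandem copies on either strand, extended to the whole run. Sequences and positions of the arrays and windows of 4 genes are not reported here. A window listed under 2 genes was counted once. Annotation came from GENCODE M1 and current gene names from RefSeq (GRCm38.p6, names only), where all 7 names matched. The functions were tested on simulated data. Named were the 7 genes, genes overlapping their windows, the other genes of shared windows, relatives with a window and the 3 most alike windows per dorsal list. Members and lists were chosen with earlier results of these data known. The work used scipy 1.17.1 for intervals, pandas 2.3.3 and numpy 2.4.6 for tables, numba 0.67.0 for word counts and matplotlib 3.10.9, under Python 3.11.15.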

Additional observations from a re-analysis of the deposited data

How the results depend on the processing

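The number of windows listed in both dorsal comparisons, 26, fell to 14 when a p-value of at most 1e-05 in the authors' deposited tables was required in both lists. It was 32 with adjacent windows counted and 18 among windows with at least 50% unique words. The member windows lower at 24 h than at 22 h went from 11 to 6 at the same p limit, and those lower than at 26 h from 11 to 9. The authors' log2 fold changes kept all 11 and 11. A minimum of 10 reads did so too, but it did not filter on the low 24 h reads. Each window had at least 17 reads in its other column, so this setting could remove none. Member windows with more CpGs than the median numbered 2 against all genome windows and 1 against the other dorsal windows. The 13 windows within 500 bp of an array were 13 with 3 or 6 copies and within 300 bp, and 8 held array bases inside; these 4 settings were chosen after seeing the data. All 19 log2 ratios with reads at 24 h kept their direction under the authors' log2 fold change and with log2(RPKM + 0.5), within their intervals. Ventral windows within 100 kb were found for 1 gene, Tbl1xr1, as by name. No paired analysis was possible because each cycle length has 1 column, and no sample could be left out. All dorsal 24 h values rest on the 1 sample that the labels name, and 10 of 13 on at most 3 reads.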
